A study of Mus musculus with 46 samples.

Results

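The RNA of 5 MC-38 tumors from mice given isotype control antibody was set against that of 3 cultures of the same cell line, which are 8 of the 46 samples in the series. The samples were taken by their replicate groups in the labels. The tumors were excised 15 days after implant from WT C57/BL6NTac female mice aged 8 to 10 weeks. These mice were randomized at day 7, and the labels give them 2 doses of isotype antibody and place the tumors at day 8 of treatment. The antibody dose of the isotype group is not given in the sources used here. The cultures carry the labels WT and no treatment, without an antibody or a time point. MC-38 is 1 mouse colon carcinoma line, so the cultures stand for this line alone, and the methods describe growth of the cell lines in DMEM with fetal bovine serum, without saying whether this holds for the cultures sequenced. Whether they were grown separately is also not stated, and the p-values below measure only the spread between the samples given. The sample identifiers of cultures and tumors fall into separate number ranges, whose meaning the labels do not give, so anything that goes with these ranges and the group cannot be told apart.

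A transplanted tumor holds the injected cancer cells and the host cells that enter it, such as macrophages, lymphocytes, fibroblasts and vessels, whereas a culture of the line holds the cancer cells alone. Macrophages clear debris and present antigen, T cells kill cells that show foreign peptides on MHC molecules, and fibroblasts and vessels build the stroma. In bulk RNA, fewer cells of a type and less RNA per cell cannot be told apart, nor can host RNA and a change within the cancer cells. Levels are FPKM, read fragments of a gene scaled for the length of its transcript and for how deeply the sample was sequenced.

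Of 48795 genes, 15199 had a mean of at least 0.5 FPKM in tumors or in culture and were tested. A mean under 0.1 FPKM in culture with at least 0.5 FPKM in tumors was found for 898 genes, called near 0 in culture. A mean of at least 1 FPKM in both groups was found for 11619 genes, called expressed in both. In the opposite class, 125 genes had a mean under 0.1 FPKM in tumors and at least 0.5 FPKM in culture. The other 2557 tested genes lay between these classes. Calls required a limma adjusted p under 0.01 together with a 2-fold change or more on log2(FPKM + 0.1), a scale that understates the change of low genes. Among all tested genes 14.2% were called higher and 7.09% lower in tumors. Among genes expressed in both, 715 were called higher (6.15%) and 578 lower (4.97%), and the median log2 fold change was -0.13. The genes near 0 in culture were chosen for their difference. They were part of the fit and of the shares over all tested genes, which they raise on the higher side. Below they are described by level, without test results.

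**Figure D1:**
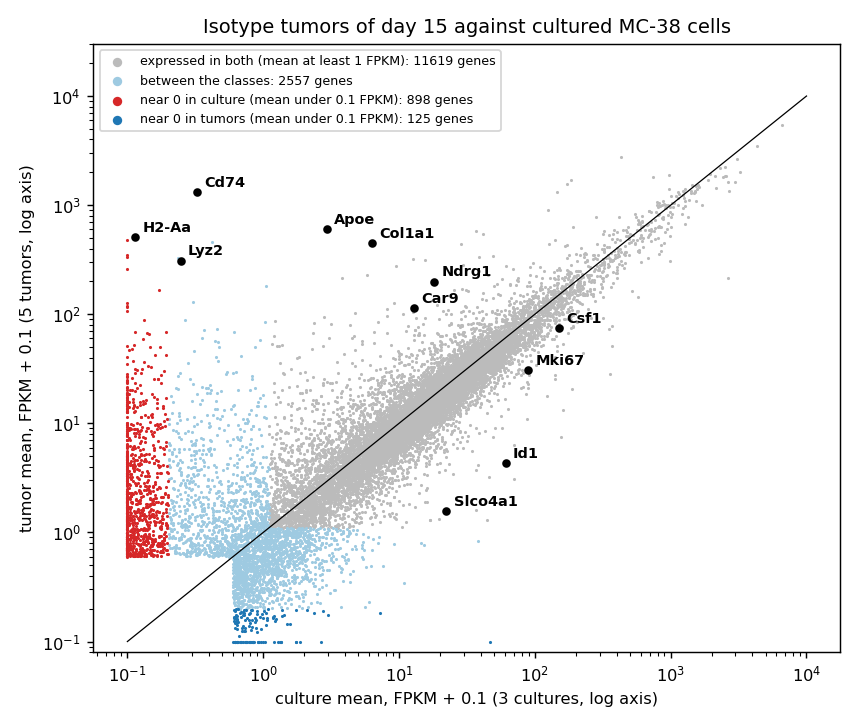
Mean level of each tested gene in the 3 cultures (horizontal) and in the 5 isotype tumors (vertical), both as FPKM + 0.1 on log axes. The 898 genes near 0 in culture form the group at the left edge.

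Depth was estimated from the steps of 1 fragment that low values take in genes with a single transcript. It came to 21300000 to 27700000 fragments in cultures and 10000000 to 12800000 in tumors, and 81.7% to 83.7% of the values of up to 10 fragments lay within 0.1 of a whole number. The estimates for tumors lie below the range of mapped reads that the methods give for the series, so the depth and the levels derived from it are uncertain. For a transcript of 2000 bases, 3 fragments were worth 0.0542 to 0.0706 FPKM in cultures and 0.117 to 0.15 FPKM in tumors, so levels near 0.1 FPKM rest on few fragments, and these values cover counting error only. The correlation of log2 values between samples was 0.993 to 0.994 among cultures and 0.943 to 0.976 among tumors. Long transcripts read lower in tumors. Among protein-coding genes expressed in both, the median log2 difference of tumor 3 from the culture mean was 0.37 for transcripts of 1000 to 2000 bases and -1.11 for those above 8000 bases. Tumor 5 reached -0.75 in the longest class, and tumors 1, 2 and 4 reached -0.47, -0.31 and -0.34. The last 3 were also low in transcripts of up to 1000 bases (-0.15, -0.35 and -0.26), so their lower values were not limited to long transcripts. In the longest class the 3 baseline tumors, labelled baseline, read -0.39 to -0.41. Of the genes above 8000 bases 14.3% were called lower, against 1.84% of those of 2000 to 3000 bases.

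**Figure D2:**
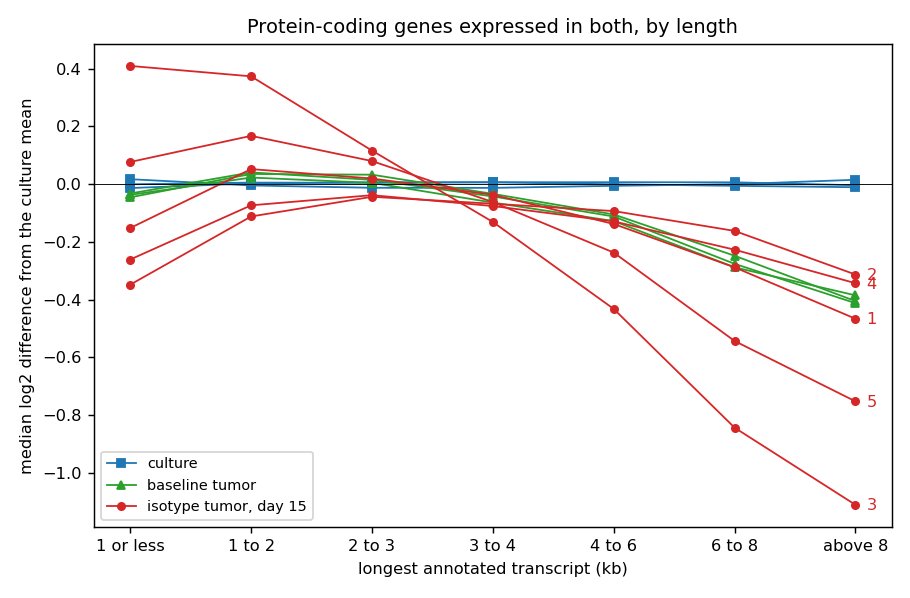
Median log2 difference of each sample from the mean of the cultures (vertical) by class of longest annotated transcript (horizontal), over protein-coding genes expressed in both. Cultures stay near 0, and isotype tumor 3 reaches the lowest value, -1.11, in the longest class.

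Genes near 0 in culture held 1.22% to 1.55% of the summed FPKM of each tumor and at most 0.00466% in a culture. They included 823 protein-coding genes, and 285 of the 898 were listed at 0 in every culture. In 872 every tumor was above every culture, which the choice of the class by group means largely sets in advance. Of the 898 genes, 632 reached 0.5 FPKM in every tumor. Their median tumor level was 1.69 FPKM, while 121 reached 10 FPKM and 10 reached 100 FPKM. In baseline tumors 710 of them had a mean of at least 0.5 FPKM, and in isotype tumors of day 11 this held for 781.

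The most abundant of these genes belonged to MHC class II, which presents antigen to CD4 T cells, and to macrophages. H2-Aa, the alpha chain of the class II molecule I-A, was 0.0437, 0 and 0 FPKM in the cultures and 352, 358, 644, 621 and 564 FPKM in tumors 1 to 5. H2-Eb1, a beta chain of class II, was 330.4, 305, 639, 580.4 and 531 FPKM in tumors and was listed at 0 in culture. Tumors 1 and 2 had the lowest levels of both genes. H2-Aa lies on chromosome 17 at 34282744 to 34287823 in GRCm38. The invariant chain Cd74, a chaperone of class II, rose from a mean of 0.224 FPKM to 781 to 1852 FPKM, and its culture level put it between the classes.

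C1qa, C1qb and C1qc encode the chains of complement C1q, which tissue macrophages make. C1qa was listed at 0 in every culture and was 266, 258, 442, 356 and 410.2 FPKM in tumors. C1qb was 234 to 408 FPKM and C1qc 189.6 to 307 FPKM in tumors. For all 3, tumors 1 and 2 were the lowest. The signaling adaptors Tyrobp (84.7 to 131 FPKM in tumors) and Fcer1g (116 to 212 FPKM), the surface protein Cd52 (86.6 to 161 FPKM) and the lysosomal protein Laptm5 (71 to 100.2 FPKM) were other leukocyte genes among the highest. Srgn, a granule proteoglycan, was 47.2 to 86.3 FPKM and Mpeg1, a pore-forming protein of macrophages, 44.8 to 90.8 FPKM. Cxcl9, a chemokine induced by interferon gamma, was 33.6, 64, 57.5, 116 and 62.9 FPKM, highest in tumor 4 and lowest in tumor 1. Cryaa, a crystallin and small heat shock protein best known from the lens, was 0.0633 to 0.119 FPKM in cultures and 58.9, 66.3, 93.8, 39.9 and 87.9 FPKM in tumors. In baseline tumors it was 20.3 to 64.2 FPKM.

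Marker lists of single cell types were then read gene by gene. Of 14 pan-leukocyte markers 12 were near 0 in culture and reached 0.5 FPKM in tumors, among them Ptprc (CD45) at 10.5 to 25.9 FPKM. Of 22 macrophage and monocyte markers this held for 15, including the F4/80 gene Adgre1 (listed at 0 in every culture and 17.8 to 27.5 FPKM in tumors), Ms4a7 (21.3 to 31.7 FPKM) and the lipid receptor Trem2 (11 to 14.4 FPKM). The summed level of this list was 13.9 to 15.5 FPKM in cultures and 1351 to 1827 FPKM in tumors. Among dendritic cell genes, the integrin Itgax was 22.4 to 34.1 FPKM and the factor Batf3 2.17 to 5.67 FPKM in tumors, and both were listed at 0 in culture.

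T cell genes had low levels. Of 22 T cell markers 18 had a mean under 0.1 FPKM in culture, and 14 of these reached 0.5 FPKM in tumors. Cd3e, a chain of the T cell receptor complex, was listed at 0 in every culture and was 0.932, 1.55, 2.77, 3.27 and 2.46 FPKM in tumors. The coreceptor genes Cd8a (1.79 to 4.41 FPKM) and Cd4 (0.778 to 1.41 FPKM) were present in every tumor. Tumor 4 was highest and tumor 1 lowest for Cd3e. The cytotoxic granule genes Gzmb (1.89 to 7.04 FPKM) and Nkg7 (3.32 to 8.06 FPKM) were listed at 0 in culture. Of 11 markers of B cells and plasma cells 5 were near 0 in culture and reached 0.5 FPKM in tumors, with the immunoglobulin chains Ighm at 15.9, 9.22, 15.4, 15.4 and 21.3 FPKM and Igkc at 19.3, 3.54, 10.3, 6.94 and 7.23 FPKM. The B cell surface gene Ms4a1 was at most 0.569 FPKM.

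Of 13 neutrophil markers 4 were near 0 in culture and reached 0.5 FPKM in tumors. Ly6g, which defines neutrophils in mice, was listed at 0 in all 8 samples. The calcium-binding protein S100a9 was 7.47, 3.67, 3.19, 0.585 and 3.28 FPKM in tumors, highest in tumor 1 and lowest in tumor 4. Csf3r, the G-CSF receptor, was 2.8 to 4.74 FPKM. The mast cell proteases Mcpt4 (0.706 to 2.68 FPKM) and Tpsb2 (1.11 to 2.24 FPKM) were detected in every tumor. The number of markers near 0 in culture that reached 0.5 FPKM in tumors was 4 of 10 for mast cells, basophils and eosinophils, 6 of 11 for NK cells and cytotoxic granules, 4 of 10 for dendritic cells and 4 of 8 for MHC class II.

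Vessel and stroma genes formed a further group. Of 18 endothelial markers 10 were near 0 in culture and reached 0.5 FPKM in tumors, where Pecam1 (CD31) was 8.95 to 10.4 FPKM and Cdh5 (VE-cadherin) 3.77 to 6.4 FPKM. The lymphatic receptor Lyve1 was 0.621 to 3.09 FPKM. Of 18 fibroblast markers this held for 8, including Thy1 (8.39 to 11.3 FPKM), Col15a1 (5.69 to 11 FPKM) and the protease Fap (3.64 to 9.29 FPKM). Acta2, the smooth muscle actin of myofibroblasts and pericytes, was 0.0528 to 0.147 FPKM in cultures and 47.3, 31.8, 45.7, 37.5 and 48.1 FPKM in tumors. The same count was 3 of 6 for lymphatic vessels, 3 of 11 for pericytes and smooth muscle, and 1 of 7 for Schwann cells and nerve.

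The adipocyte markers differed between tumors. Cfd (adipsin) was listed at 0 in culture and was 67, 25.5, 59, 5.95 and 43.8 FPKM in tumors, and Adipoq, also listed at 0 in culture, was 6.86, 1.79, 7.25, 0.541 and 5.03 FPKM. Tumors 2 and 4 were the lowest for both. Of 12 skeletal muscle markers 1 was near 0 in culture and reached 0.5 FPKM in tumors, and 7 of 10 adipocyte, 0 of 10 keratinocyte and 4 of 7 red blood cell markers did so. The summed keratinocyte list was still 14.5 to 37.7 FPKM in tumors, against 4.85 to 5.5 FPKM in cultures. The beta globin Hbb-bs was 46, 26.4, 465, 50.6 and 50.6 FPKM and the alpha globin Hba-a2 32.8, 16.4, 474, 29.8 and 35.3 FPKM. Tumor 3 was highest for both. Of their 50-base stretches 53.2% and 89.3% also occur in another gene, so the split of reads between copies is uncertain. The erythroid anion exchanger Slc4a1 was at most 0.0343 FPKM in tumors.

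**Figure D3:**
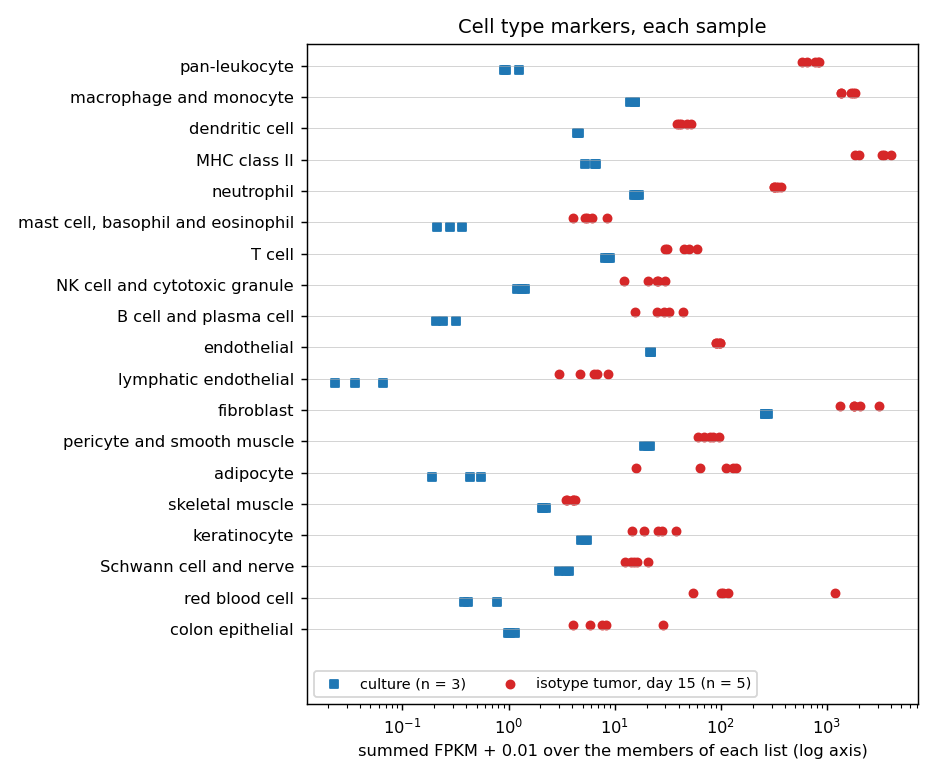
Summed FPKM of each cell type list (horizontal, log axis) in the 3 cultures and the 5 isotype tumors of day 15. The macrophage list sums to 1351 to 1827 FPKM in tumors, red blood cell genes are highest in tumor 3, and several lists have a level of their own in culture. The neutrophil list sums to 316 to 371 FPKM in tumors, most of it from Mmp9, which the cultures also express.

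Some marker genes were expressed by the cultured cells. Pdgfra, a fibroblast receptor, was 35.6 to 38.5 FPKM in cultures and 17.3 to 35.6 FPKM in tumors (adjusted p 0.0371, not called). The collagen genes Col6a3 and Col3a1 had culture means of 138 and 36.6 FPKM. Flt1, a VEGF receptor of endothelium, was 11.6 to 11.8 FPKM in cultures and 10.3 to 18.1 FPKM in tumors. Mertk (6.9 FPKM) and Cd14 (4.49 FPKM) of macrophages were present in culture too. Foxp3, the regulator of regulatory T cells, was 0.956 to 1.1 FPKM in cultures and 0.796, 0.719, 1.53, 1.03 and 0.988 FPKM in tumors, so that the groups overlapped. Cd247, the zeta chain of the T cell receptor complex, fell from 6.8 to 7.32 FPKM in cultures to 2.3 to 4.21 FPKM in tumors (log2 fold change -1.2, SE 0.19, limma adjusted p 0.000706).

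The label of a colon carcinoma was checked against epithelial genes. Of 16 colon epithelial markers 13 had a mean under 0.1 FPKM in culture, and the intestinal regulator Cdx2 was listed at 0 in all 8 samples. The adhesion genes Cdh1 and Epcam had culture means of 0.014 and 0.215 FPKM. Mesenchymal genes were high in culture, with means of 971 FPKM for Vim, 37.8 FPKM for Twist1, 49.1 FPKM for Snai1 and 23.5 FPKM for the N-cadherin gene Cdh2. None of these 4 was called between tumors and culture. In tumors Cdh1 reached 1.1 to 1.72 FPKM and Krt19 was 7.9, 1.04, 1.98, 0.242 and 1.58 FPKM, highest in tumor 1. Of 14 regulators of the epithelial-mesenchymal transition 9 were expressed in both, of which Snai2 was called higher (log2 fold change 1.67) and Twist2 and S100a4 lower (-1.12 and -1.76). Among all genes expressed in both, 6.15% were called higher and 4.97% lower. Without tumor 2 the change of Twist2 was -0.99 and missed the 2-fold limit. Its call also ended in a fit with all antibody groups (limma adjusted p 0.0125) and with a replicate block (limma adjusted p 0.0105). Xist, the RNA of the inactive X chromosome, was 0.0132 to 0.0148 FPKM in cultures and 8.26, 9.97, 5.14, 12.7 and 7.89 FPKM in tumors from female hosts, and the Y gene Ddx3y was listed at 0 in all 8 samples.

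The interferon response had the highest median of the 17 pathway lists among genes expressed in both. Interferons activate transcription factors that bind an element in the promoters of target genes. Of 26 listed genes 19 were expressed in both, and 18 of them were called higher and 0 lower. Of all genes expressed in both, 6.15% were called higher and 4.97% lower. The list had a median log2 fold change of 2.64 against -0.13 for all such genes. Cxcl9 was near 0 in culture, and the other 6 genes lay between the classes. These 6 were also called higher, but their class partly sets this direction, so they are left out of the count of 18. Iigp1, a GTPase of host defense, rose from 0.97 to 1.21 FPKM in cultures to 31.5, 80.8, 42.1, 112 and 50.5 FPKM in tumors (log2 fold change 5.57, SE 0.37, limma adjusted p 1.93e-06). Irf7, a factor that amplifies the response, rose from 1.01 to 1.66 FPKM to 32.2, 50.4, 65.5, 53 and 60.9 FPKM (log2 fold change 5.25, SE 0.24, limma adjusted p 1.38e-07). Tumor 1 was lowest for both. Isg15, a ubiquitin-like modifier, rose from a mean of 11.5 FPKM to 43.4 to 110.1 FPKM (log2 fold change 2.68). Ifit2 was the member not called (8.74 to 10.5 FPKM in cultures and 6.31 to 16.1 FPKM in tumors, adjusted p 0.744).

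The promoters of these genes were searched for the interferon-stimulated response element, written GAAANNGAAA, on both strands. Windows ran from 250 bases before to 50 bases after each start in the RefSeq table (GRCm38.p6). Windows were found for 20 of the 26 listed genes. Of 25 windows of the list 12 held it (48%), against 3.44% of all 32851 windows. The part before the start is shown for Ifit3, an antiviral gene, at chr19:34583279-34583528 on the plus strand, with both matches in capitals.

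Ifit3: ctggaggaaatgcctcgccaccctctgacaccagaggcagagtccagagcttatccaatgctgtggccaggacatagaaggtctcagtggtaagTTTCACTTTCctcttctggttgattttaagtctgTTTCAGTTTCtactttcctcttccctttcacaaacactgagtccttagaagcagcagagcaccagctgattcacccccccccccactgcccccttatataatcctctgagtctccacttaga

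Ifit3 itself rose from 1.01 to 1.23 FPKM in cultures to 15.8, 29.6, 25.2, 24.7 and 22.4 FPKM in tumors (log2 fold change 4.27, SE 0.19, limma adjusted p 1.16e-07). A match describes letters in a window and is not a binding site.

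MHC class I carries peptides of the cell to CD8 T cells. All 14 listed genes were expressed in both, with a median log2 fold change of 2.28. Of them 12 were called higher and 0 lower, beside 6.15% and 4.97% of all genes expressed in both. H2-K1, a heavy chain, rose from 180.4 to 191 FPKM in cultures to 1332, 1385, 2279, 1759 and 1745 FPKM in tumors (log2 fold change 3.17, SE 0.17, limma adjusted p 4.85e-07). Its light chain B2m rose from 427 to 434 FPKM to 2381, 2591, 3262, 2777 and 2939 FPKM (log2 fold change 2.69, SE 0.12, limma adjusted p 1.55e-07). In both genes every tumor was above every culture. The peptide transporter Tap1 rose from 8.12 FPKM to 78.2 to 141 FPKM (3.74), the immunoproteasome subunit Psmb9 from 4.68 FPKM to 69.9 to 152 FPKM (4.39) and the class I activator Nlrc5 from 2.01 FPKM to 16.1 to 33.3 FPKM (3.52). The trimming peptidase Erap1 and the chaperone Calr were not called. The same element was in 3 of 14 windows of the list (21.4%). The part before the start of B2m is shown at chr2:122147437-122147686 on the plus strand, with the match in capitals.

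B2m: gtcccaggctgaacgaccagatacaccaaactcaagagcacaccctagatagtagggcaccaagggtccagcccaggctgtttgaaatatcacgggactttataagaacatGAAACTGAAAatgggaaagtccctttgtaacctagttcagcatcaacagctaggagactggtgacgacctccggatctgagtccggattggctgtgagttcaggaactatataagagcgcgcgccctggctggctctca

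Genes of low oxygen and glycolysis rose in part. Cells short of oxygen stabilize HIF factors, which bind a core of ACGTG in target promoters. Of 30 listed genes 29 were expressed in both, with a median log2 fold change of 0.67. Of these 12 were called higher and 0 lower, beside 6.15% and 4.97% of all genes expressed in both. Ndrg1, a stress response gene, rose from 16.7 to 19.8 FPKM in cultures to 179, 176, 222, 194 and 223 FPKM in tumors (log2 fold change 3.45, SE 0.11, limma adjusted p 1.2e-08). Car9, a carbonic anhydrase on the cell surface, rose from 11.8 to 14.3 FPKM to 89.1, 87.5, 155, 109 and 125 FPKM (log2 fold change 3.1, SE 0.18, limma adjusted p 9.5e-07). In both genes every tumor was above every culture. Ero1l, an oxidase of protein folding, rose from 31.1 FPKM to 149.6 to 193 FPKM (2.4), the glucose transporter Slc2a1 from 68.7 FPKM to 225 to 321 FPKM (1.89) and the angiogenic factor Vegfa from 65.9 FPKM to 142 to 224 FPKM (1.47). The glycolytic enzyme Ldha was 1234 to 1252 FPKM in cultures and 1054 to 1802 FPKM in tumors and was not called, and neither were Pgk1, Tpi1 and Aldoa. Baseline tumors read 47.2 to 65.8 FPKM for Car9 and 97.6 to 129 FPKM for Ndrg1.

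The core was in 22 of 42 windows of the list (52.4%), against 19.6% of all windows. The part before the start of Car9 is shown at chr4:43506776-43507025 on the plus strand, with the match in capitals.

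Car9: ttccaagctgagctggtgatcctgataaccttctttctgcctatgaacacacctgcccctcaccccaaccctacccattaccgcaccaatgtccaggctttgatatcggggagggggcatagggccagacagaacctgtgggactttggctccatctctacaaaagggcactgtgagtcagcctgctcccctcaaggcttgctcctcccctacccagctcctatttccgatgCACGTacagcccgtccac

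Matrix genes were higher beside the fibroblast markers. Of 8 fibroblast markers expressed in both, 6 were called higher and 0 lower, beside 6.15% and 4.97% of all genes expressed in both. Col1a1, a chain of type I collagen, rose from 5.48 to 6.99 FPKM in cultures to 389, 614, 321, 406 and 497 FPKM in tumors (log2 fold change 6.11, SE 0.19, limma adjusted p 1.28e-08). Postn, a matrix protein of activated fibroblasts, rose from 12.6 FPKM to 174 to 561 FPKM (4.53). Tumor 2 was highest for both. The summed level of the fibroblast list was 261 to 276 FPKM in cultures and 1324 to 3057 FPKM in tumors, and the part of host cells in the matrix results was not tested. Of 20 matrix proteases and inhibitors 15 were expressed in both, 10 were called higher and 0 lower, with a median of 1.17. The gelatinase Mmp9 rose from 14.5 to 16.1 FPKM to 309, 295, 324, 354 and 299.9 FPKM (log2 fold change 4.36, SE 0.08, limma adjusted p 8.99e-10). The stromelysins Mmp10 (3.57) and Mmp3 (2.56), the membrane protease Mmp14 (1.43) and the plasminogen activator Plat (2.56) were also called higher, with these log2 fold changes. The inhibitors Timp1 and Timp2 had log2 fold changes of 0.38 and -0.18 and were not called. Of 14 basement membrane and adhesion genes expressed in both, Itga5 (1.64) and Sparc (1.46) were called higher and the laminin chain Lama5 lower (-2.05). Without culture 2 the count of higher calls was 4. The longest transcript of Lama5 has 11388 bases, in the class where long transcripts read lower, and the call ended with the length trend removed (-1.38).

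The largest rises among genes expressed in both mixed these groups. Apoe, a lipid carrier made by macrophages, rose from 2.72 to 3.05 FPKM in cultures to 507, 546, 535, 665 and 759 FPKM in tumors (log2 fold change 7.67, SE 0.14, limma adjusted p 7.35e-10). Bgn, a matrix proteoglycan, rose from 3.72 FPKM to 129 to 272 FPKM (5.77) and the macrophage protein Cd68 from 1.06 FPKM to 43.1 to 64.6 FPKM (5.55). The interferon-induced GTPase Tgtp2 rose by 5.28 on the log2 scale, but 86.6% of its 50-base stretches occur in another gene. The class II factor H2-DMa (5.23), the surface protein Ly6a (5.22), the nonclassical class I genes H2-T23 (5.08) and H2-Q6 (4.87) and the protease inhibitor Serpina3g (5.07) completed the 12 largest, together with Col1a1, Iigp1 and Irf7. For H2-Q6 32% of the stretches are shared.

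The stress and signaling lists differed in how many of their genes were called. Of 18 immediate early genes, which respond within minutes to growth signals or handling, 16 were expressed in both, 8 were called higher and 0 lower (median 1.12). Without culture 3 the count of higher calls was 5. Btg2, an antiproliferative gene, rose from 1.22 FPKM to 6.29 to 9.9 FPKM (2.45), and Zfp36, which destabilizes cytokine mRNA, from 3.62 FPKM to 12.2 to 30.7 FPKM (2.15). Fos was 1.59 to 1.63 FPKM in cultures and 4.97, 5.04, 22.1, 7.76 and 5.06 FPKM in tumors (log2 fold change 2.13, SE 0.45, limma adjusted p 0.00387), highest in tumor 3. Leaving out any 1 of the 3 cultures ended this call (limma adjusted p 0.0159 to 0.0176). Of 14 p53 targets expressed in both 4 were called higher and 0 lower. Among them the cell cycle inhibitor Cdkn1a rose from 13.6 FPKM to 57.2 to 103 FPKM (2.44) and the death receptor Fas from 2.67 FPKM to 9.94 to 13.2 FPKM (2.15), while Mdm2, Bax and Ccng1 were not called. Of 21 genes of the amino acid response 5 were called higher and 0 lower. They were Nupr1, Trib3, Chac1, Sesn2 and Ddit3, with log2 fold changes of 1.27 to 2.0, and tumor 2 was the lowest of the 5 tumors for each. The central factor Atf4 was not called (adjusted p 0.0339). Without culture 3 the limma adjusted p of Chac1 was 0.0122 and its call ended. In the actin, SRF and YAP list 3 of 15 genes expressed in both were called higher and 0 lower. In the NRF2 list 1 of 15 genes were called higher and 2 lower, and among chaperones 1 of 14 higher and 1 lower, beside the 6.15% and 4.97% of all genes expressed in both. The single higher call of both lists ended without any 1 of the 3 cultures, in the NRF2 list also without tumor 3 or 5 and among chaperones without tumor 1, 4 or 5, and 2 chaperones were called lower without tumor 2.

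Sterol synthesis had the lowest median of the 17 lists, -0.75. Its enzymes are induced by the SREBP2 factor when cells lack sterol. All 25 listed genes were expressed in both, 7 were called lower and 1 higher, beside 4.97% and 6.15% of all such genes. In 21 every tumor was below every culture, against 4035 of all 11619 genes expressed in both. Idi1, an isomerase of the mevalonate pathway, fell from 71.2 to 74.9 FPKM in cultures to 22.4, 29.6, 29.1, 31.7 and 27.5 FPKM in tumors (log2 fold change -1.38, SE 0.11, limma adjusted p 7.46e-06). Insig1, which retains SREBP2 in the endoplasmic reticulum, fell from 74.6 FPKM to 23.9 to 32.5 FPKM (-1.37), and Sc5d, a late enzyme, from 49.7 FPKM to 17.7 to 20.2 FPKM (-1.41). Lss, Acat2, Nsdhl and Stard4 were the other genes called lower. With the length trend removed from each sample, 6 genes were called lower and the median was -0.60, above that of the G2/M list (-0.65), which was then the lowest. Promoter windows were found for 17 of the 25 listed genes. The sterol response element ATCACNCCAC was in 0 of 20 windows of the list and 0.234% of all windows. With so rare a match, 20 windows are too few to tell the list from other promoters.

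Cell cycle genes were lower by less than 2-fold for the most part. All 22 genes of G2/M were expressed in both with a negative log2 fold change (median -0.73). Of them 5 were called lower and 0 higher, beside 4.97% and 6.15% of all genes expressed in both. The proliferation marker Mki67 fell from 84.8 to 94.3 FPKM in cultures to 33.4, 41.9, 16.6, 37.1 and 23.5 FPKM in tumors (log2 fold change -1.62, SE 0.27, limma adjusted p 0.000992). The others called were the kinetochore genes Cenpe (-1.5) and Cenpf (-1.68), the motor Kif11 (-1.0) and the spindle gene Hmmr (-1.2). Tumor 3 was the lowest of the 5 tumors for each of these 5 genes. Kif11 missed the 2-fold limit when tumor 3 (-0.92), tumor 5 (-0.97) or culture 3 (-0.98) was left out. With the length trend removed 4 were called lower and the list median was -0.65. Ccnb1, a cyclin of mitosis, had a log2 fold change of -0.98 (adjusted p 2.53e-05) and fell short of the 2-fold limit, which it reached without culture 2, tumor 1 or tumor 2. Of 23 genes of G1/S and replication 0 were called higher and 0 lower by limma, with 2 higher and 19 lower at an unadjusted p under 0.05, against 21.7% higher and 34.1% lower of all genes expressed in both at this p, and their median was -0.46. Of 20 ribosome biogenesis genes Utp20 was called lower (-1.19, and -0.65 with the length trend removed, no longer called) and 0 higher. At an unadjusted p under 0.05, 0 of the 20 were higher and 15 lower, beside the same shares of all genes. Their median was -0.42. Of 20 nuclear genes of oxidative phosphorylation 0 were called higher and 0 lower, with 1 higher and 5 lower at an unadjusted p under 0.05, below those shares of all genes. Without tumor 1 the count of ribosome biogenesis genes called lower was 2, and without tumor 3 that of oxidative phosphorylation was 1.

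**Figure D4:**
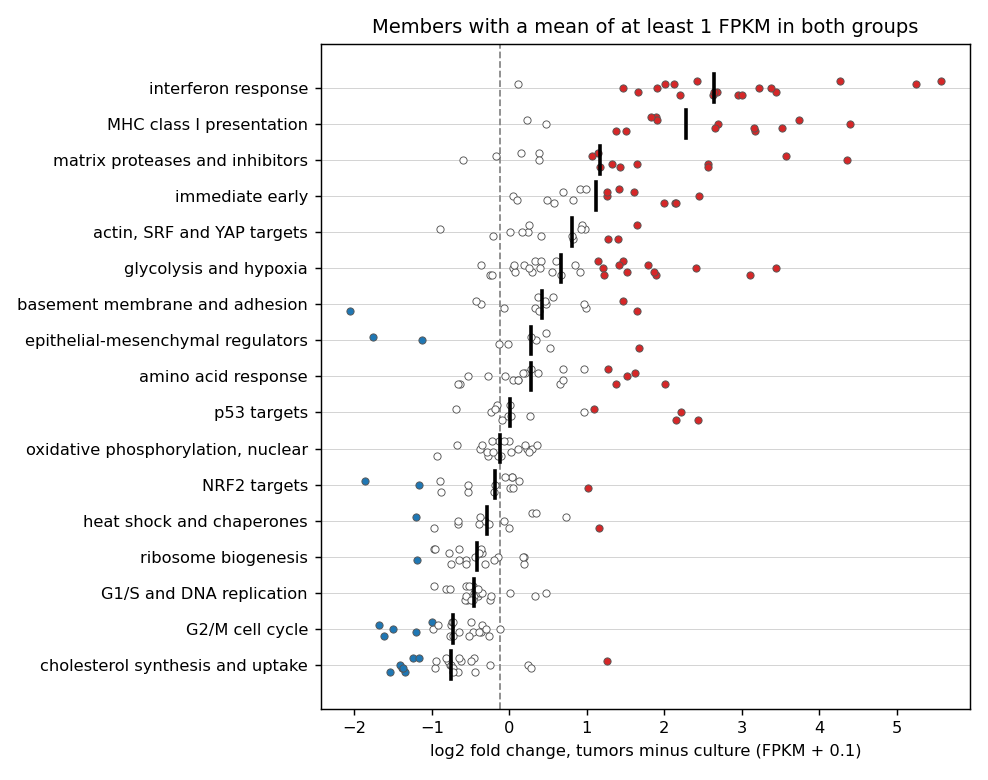
Log2 fold change, tumors minus culture, of the members of 17 lists that were expressed in both. The interferon list has the highest median (2.64) and the sterol list the lowest (-0.75), against -0.13 for all genes expressed in both. With the length trend removed, which is not drawn, G2/M was lowest (-0.65).

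The deepest falls among genes expressed in both were in single genes. Id1, an inhibitor of differentiation factors and a target of BMP signaling, fell from 62, 60.4 and 60.3 FPKM in cultures to 4.68, 3.28, 4.26, 3.87 and 4.9 FPKM in tumors (log2 fold change -3.84, SE 0.13, limma adjusted p 2.3e-08). Baseline tumors held 3.22 to 3.67 FPKM of Id1. Its relatives were chosen after these values were seen. Id3 fell from 49.1 to 52.5 FPKM to 7.45 to 10.3 FPKM (-2.48), and Id2 was 10.6 to 11.2 FPKM in cultures and 17.4 to 21 FPKM in tumors (0.8, not called). Slco4a1, an organic anion transporter, fell from 20.8 to 23.4 FPKM to 1.17, 1.81, 1.42, 1.46 and 1.42 FPKM (log2 fold change -3.85, SE 0.14, limma adjusted p 4.11e-08). Slc5a3, a carrier of inositol, fell by 2.87 on the log2 scale, and Cd300lb, a receptor of myeloid cells that the cultures expressed at 8.23 to 8.64 FPKM, fell by 2.61. Sned1, Ptchd1, Peg10, Fndc3c1, Kif24, Eya4 and Sgip1 also fell, and tumor 3 was the lowest of the 5 tumors for each. The call of Peg10 ended when any 1 culture or tumor 1, 2 or 5 was left out (limma adjusted p 0.0127 to 0.0249). The mitochondrial gene mt-Atp8 fell from 2472 to 2961 FPKM to 117 to 283 FPKM (-3.68). Its transcript of 204 bases overlaps mt-Atp6, and in baseline tumors it read 1925 to 3199 FPKM.

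Few genes were near 0 in tumors. Of these 125 genes, 47 were processed pseudogenes and 18 were protein-coding, of which 3 reached 1 FPKM in culture. They were Gm10065 (1.23 to 1.3 FPKM in cultures) and the copies Gm21748 and Gm21860, whose 50-base stretches all occur in another gene. Gm10065 was listed at 0 in every tumor. The pseudogene Gm12918, chosen after its values were seen, was 26.7, 29.8 and 83.5 FPKM in cultures, at most 0.0003 FPKM in tumors and 34.8 to 65.6 FPKM in baseline tumors. For a transcript of 2000 bases, 1 fragment was worth 0.039 to 0.0499 FPKM in tumors. The tumor values of Gm12918 thus lie far below 1 fragment and are not read as a level.

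Signals between cells were read as pairs of a ligand and its receptor. Csf1, the growth factor of macrophages, fell from 144 to 156 FPKM in cultures to 79.3, 66.8, 72.9, 70.4 and 82.4 FPKM in tumors (log2 fold change -1.03, SE 0.09, limma adjusted p 1.13e-05). Without tumor 2 the change was -0.99, with median-of-ratios scaling -0.95 and with the length trend removed -0.87, all short of the 2-fold limit. Its receptor Csf1r rose from 1.75 FPKM to 31 to 46.1 FPKM (4.43). The monocyte chemokine Ccl2 was 64.4 to 70.7 FPKM in cultures and 54.5 to 83.3 FPKM in tumors (adjusted p 0.982), and its receptor Ccr2 was 0.0125 to 0.0401 and 3.89 to 8.07 FPKM. Ccl5, which attracts T cells and monocytes, rose from 9.81 FPKM to 21.9 to 57.2 FPKM (2.0). Cx3cl1 rose from 7.34 FPKM to 20.2 to 32.6 FPKM (1.74), with its receptor Cx3cr1 at 8.04 to 17.9 FPKM in tumors.

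For T cells, the chemokine Cxcl10 rose from 18.9 FPKM to 62.7 to 161 FPKM (2.62), and its receptor Cxcr3 was 0.0902 to 0.634 FPKM in tumors. The PD-L1 gene Cd274 rose from 1.33 to 1.63 FPKM to 7.02, 12.6, 8.58, 20.1 and 10.6 FPKM (log2 fold change 2.8, SE 0.30, limma adjusted p 5.2e-05). Its receptor Pdcd1 was 0 to 0.0194 FPKM in cultures and 1.3, 1.42, 2.35, 3.36 and 1.95 FPKM in tumors. Both were highest in tumor 4 and lowest in tumor 1. Ifng, the gene of interferon gamma, was listed at 0 in culture and was 0.554, 1.35, 1.75, 2.4 and 1.06 FPKM in tumors, with the same tumors highest and lowest. Its receptor Ifngr1 was 21.5 to 22.4 FPKM in cultures and 31 to 42.6 FPKM in tumors and was not called.

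For vessels and stroma, the VEGF receptor Kdr was 0.0443 to 0.0635 FPKM in cultures and 1.55 to 2.17 FPKM in tumors, beside Vegfa as given above. Angpt2, which destabilizes vessels, rose from 1.17 FPKM to 2.72 to 3.33 FPKM (1.25). Its call ended with a pseudocount of 1 FPKM (0.85) and in a fit with all antibody groups (limma adjusted p 0.0152). Pdgfrb, the receptor of pericytes, rose from 15.3 FPKM to 36.2 to 63.1 FPKM (1.62). The scatter factor Hgf was 0.156 to 0.327 FPKM in cultures and 1.01 to 12.5 FPKM in tumors, and its receptor Met fell from 22.2 to 24.3 FPKM to 6.68 to 11.8 FPKM (log2 fold change -1.26, SE 0.17, limma adjusted p 0.000278). With the length trend removed the change of Met was -0.86 and missed the 2-fold limit. The alarmin Il33 was 0.207 to 0.299 and 8.74 to 19.8 FPKM, and its receptor Il1rl1 16 to 17.6 and 15.1 to 26.5 FPKM (not called).

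**Figure D5:**
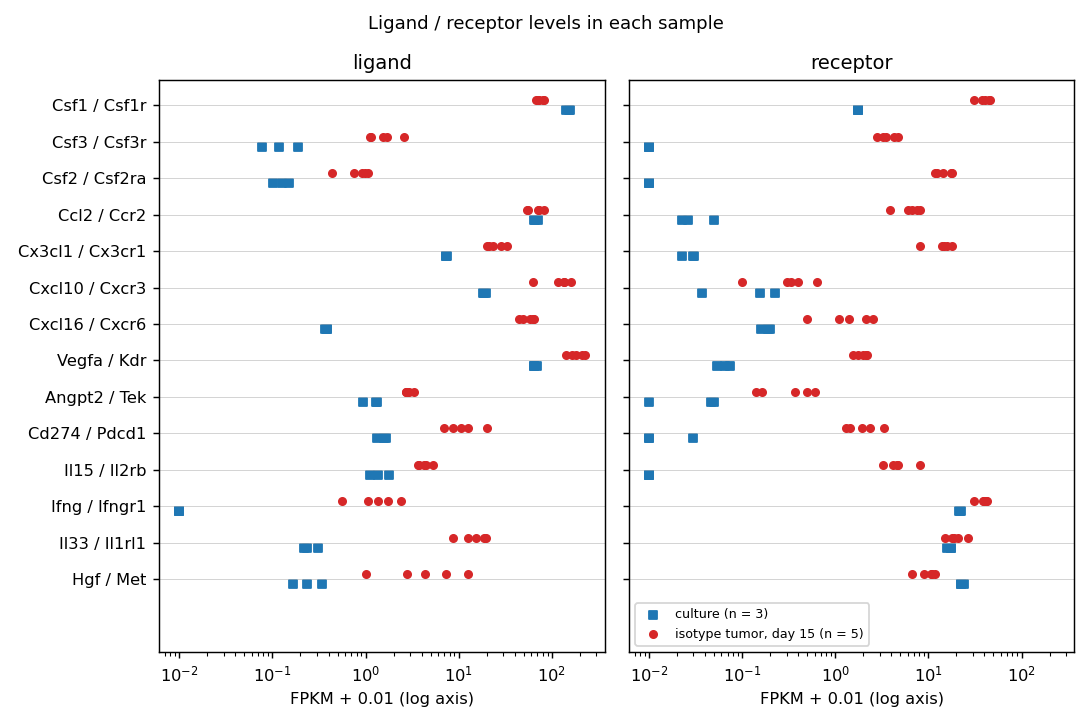
Levels of 14 ligands (left) and their receptors (right) as FPKM + 0.01 on log axes in the 3 cultures and 5 isotype tumors of day 15. Csf1 and Met are lower in tumors, Ccl2 overlaps, and Ifng lies at the left edge in culture.

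Of the 10 most abundant nuclear genes expressed in both, B2m was called. The others were Eef1a1, a factor of translation (4294 to 4305 FPKM in cultures and 2985 to 4029 FPKM in tumors), Ppia, Fth1, Lgals1 and the ribosomal genes Rplp0, Rplp1, Rpl41, Rps2 and Rpl19, and none of these 9 was called. Near the limit of 0.1 FPKM in culture, Disp2 (0.0981 FPKM), Grk3 (0.0995 FPKM) and Npl (0.0999 FPKM) lay just inside the class near 0, and Pde1b (0.101 FPKM), S100a16 (0.101 FPKM) and Bco2 (0.102 FPKM) just outside it. In tumors Npl was 0.92 to 2.76 FPKM and Pde1b 4.36 to 7.02 FPKM.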

How the data were processed

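RNA was sequenced from 46 samples, of which the 3 cultures and 5 isotype tumors of day 15 were compared here. According to the methods, the authors depleted ribosomal RNA from stranded total RNA, aligned paired reads to the mouse build B38 with the Omicsoft aligner, allowing at most 2 mismatches, and deposited FPKM values of Ensembl gene models, without further scaling between samples. FPKM are not counts, so limma 3.58.1 in R 4.3.3 was fitted with a trended prior to log2(FPKM + 0.1) of the 8 samples, with a filter at a mean of 0.5 FPKM in either group and Benjamini-Hochberg adjustment over 15199 genes. On simulated data of 14224 tested genes, 189 of 200 genes changed by 2 on the log2 scale were recovered, with 3 false calls. The simulation gave each gene the same normal spread in both groups, changed only better expressed genes and held no length trend. The real tumors varied more than the cultures, so these rates need not hold for the real data. Of the gene identifiers 99.3% matched GENCODE M21 (GRCm38), which gave positions and transcript lengths. Shared sequence was counted over stretches of 50 bases, and promoters came from the RefSeq table (GRCm38.p6). Python 3.11.15 was used for the other steps.

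Named genes were the members of the lists and ligand and receptor pairs, the 15 most abundant genes near 0 in culture, the 12 highest and 12 lowest called changes among genes expressed in both, up to 10 protein-coding genes lost from tumors, the 10 most abundant genes and the 3 genes on either side of 0.1 FPKM in culture. The members, the lists and the rules were chosen with earlier results of these data known. Alternatives were the pseudocount, the filter, 3 scalings, a fit with all antibody groups, the prior, array weights, a replicate block and leaving out each sample. Removal of the trend on transcript length (loess, span 0.5) was added after seeing the data. Replicate numbers were not used as pairs. Some members of the lists are not reported here by name.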

Additional observations from a re-analysis of the deposited data

Results flagged for a closer look

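Among 220 values examined over the 5 tumors (genes named in the text and summed lists), 11 had 1 tumor far from the other 4 by Dixon's criterion, which is 5%. Chance alone flags about 1 in 20 values that are independent and normally spread. The levels were used without logs and the summed lists share genes with the named ones, so these rates cannot be compared.

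In tumor 3, 6 values were the highest by this criterion. Hba-a2 was 474 FPKM against 16.4 to 35.3 FPKM in the others, Hbb-bs was 465 FPKM against 26.4 to 50.6 FPKM, and the summed red blood cell list was 1198 FPKM against 54.7 to 116 FPKM. The immediate early genes Fos (22.1 FPKM against 4.97 to 7.76 FPKM), Zfp36 (30.7 FPKM against 12.2 to 15.4 FPKM) and Btg2 (9.9 FPKM against 6.29 to 6.96 FPKM) stood out in the same tumor.

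In tumor 1, the summed colon epithelial list was 28.2 FPKM against 4.04 to 8.33 FPKM, and Krt19 was 7.9 FPKM against 0.242 to 1.98 FPKM. The B cell gene Ms4a1 was 0.569 FPKM there against 0 to 0.0836 FPKM. The pseudogene Gm12918 was 0.0003 FPKM in tumor 1 and lower in the others, values far below 1 fragment. In tumor 4, Peg10 was 4.62 FPKM against 0.297 to 1.17 FPKM.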

How the results depend on the processing

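Over 19 alternatives, 0 called genes named here and expressed in both turned their direction. Of 2280 values of the named genes 2197 kept their direction and their side of the threshold, 39 calls were lost, 10 were gained and 34 turned in direction, all in 10 genes that were not called and had log2 fold changes of -0.139 to 0.11 as reported. With median-of-ratios scaling the turned log2 fold changes were Ccl2 0.068, Foxp3 0.0122, Fth1 0.023, Mdm2 0.0577 and Twist1 0.0602. With the replicate block they were Ccl2 0.0444 and Twist1 0.00327. With array weights they were Cdh2 0.00338, Ldha -0.0148, Mdm2 0.055 and Tpi1 -0.0553. With the length trend removed they were Cdh2 0.0816, Foxp3 0.0716, Mdm2 0.0446 and Tpi1 -0.0186. With upper-quartile scaling they were Ifit2 -0.00119, Ldha -0.0406 and Tpi1 -0.0702. With scaling to an equal sum over protein-coding genes it was Tpi1 -0.00877. Without an individual sample the log2 fold change was -0.0859 to 0.0671 for Ccl2, -0.203 to 0.0452 for Foxp3, -0.153 to 0.0419 for Fth1, -0.0541 to 0.28 for Ifit2, -0.0437 to 0.15 for Ldha, -0.0604 to 0.0293 for Mdm2, -0.21 to 0.0045 for Rpl19, -0.0526 to 0.0952 for Tpi1 and -0.0437 to 0.0305 for Twist1. Of 646 list counts 53 moved by over 1.5 times. Genes called lower were the less stable count. Of 1078 in all, 692 were called with a pseudocount of 1 FPKM, and of 578 expressed in both, 351 were called with the trend on transcript length removed. Without an individual sample, 599 to 1211 genes were called lower in all and 363 to 670 among those expressed in both. The count in all fell by over 1.5 times without culture 1 (648), culture 2 (653) or culture 3 (599), and that of genes expressed in both without culture 3 (363). With no fold limit 5621 genes were called. With limits of 0.1 FPKM in culture and 0.5 FPKM in tumors, 1991 called genes counted as expressed in both. The class near 0 in culture held 285 genes if every culture had to be listed at 0 and 1518 at a culture mean under 0.5 FPKM, and 883 to 904 without an individual sample. Upper-quartile scaling moved the median of genes expressed in both by -0.11, and 43.6% of their calls were then higher in tumors, against 55.3% as reported and 70.3% with the length trend removed. Under it the members with a negative log2 fold change went from 0 to 1 in the interferon list, 0 to 2 in immediate early, 3 to 6 in glycolysis and hypoxia, 6 to 8 in p53, 9 to 13 in NRF2, 13 to 15 in oxidative phosphorylation, 5 to 6 in the amino acid response, 2 to 3 in actin, SRF and YAP and 20 to 21 in G1/S, with the other 8 lists as before. The median of the p53 list was 0.01 as reported and -0.096 under this scaling.

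With the replicate number as a block, 582 genes were called lower in all and 350 among those expressed in both. The deviations of same-numbered samples had r of -0.003, -0.0538 and -0.0646. These values show no pairing by number, but so few samples cannot exclude it. The cause of these differences was not tested.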
